A study of Rattus norvegicus with 3 samples.

Results

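The 5 subunits of NF-κB (Nfkb1, Nfkb2, Rel, Rela and Relb) and 5 inhibitors or brakes that NF-κB itself induces (Nfkbia, Nfkbiz, Nfkbie, Tnfaip3 and Bcl3) were followed through every cell cluster of 3 rat jaw joint libraries. They were picked by gene name, not by their values, but with earlier results of these data known. All 10 of 10 names were listed in each library, out of 19241 gene names in sham, 19665 in UAC, 19725 in UAC + miR-330 and 20896 over the series. Each had 1 identifier, the same in the 3 libraries, such as ENSRNOG00000023258 for Nfkb1 and ENSRNOG00000007390 for Nfkbia.

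NF-κB is a family of dimeric transcription factors that IκB proteins hold in the cytoplasm until a kinase marks the IκB for destruction. The freed dimers enter the nucleus and switch on inflammatory genes together with their own brakes, so that a rise in Nfkbia or Tnfaip3 transcripts is a commonly used sign of recent signalling, while the subunits set how much factor a cell holds. In joints the pathway drives cytokine and protease genes in chondrocytes and is needed to form osteoclasts, and B cells keep it partly active throughout their life.

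The libraries come from cartilage and subchondral bone of the mandibular condyle of wild-type SD rats, 24 animals in 3 groups, with 16 condyles pooled into each library, so no animal can be told apart. Every group received an adeno-associated virus (AAV) injected into the temporomandibular joint. Sham rats had the vector AAV and no UAC (unilateral anterior crossbite, a dental model that overloads the joint). UAC rats had the vector AAV and the crossbite, and UAC + miR-330 rats had the crossbite and an AAV carrying miR-330. The label of this last library names a treatment group only, and its AAV was taken from the series' design text. Ages were not given.

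The labels name chondrocytes and osteoclasts as the cell types. One cluster of each library held chondrocyte genes, with 17 of 20 chondrocyte markers at least 2-fold above the other clusters in sham, 17 in UAC and 18 in UAC + miR-330, and it also held 9, 10 and 10 of 11 osteogenic and 11, 10 and 11 of 13 fibroblast markers. No cluster met the rule for an osteoclast cluster. Dcstamp, needed for osteoclast fusion, had 0 UMIs in sham, 2 in UAC and 0 in UAC + miR-330, and Calcr, the calcitonin receptor, had 4, 1 and 2. Less specific osteoclast markers were present, with Acp5 at 11610, 10364 and 9193 UMIs and a B-lineage cluster holding more of them than any other cluster, and Ctsk at 1857, 1804 and 1126, where this was the chondrocyte-like cluster. Most of the captured RNA belonged instead to blood-forming cells.

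The library of sham held 77668015 UMIs in 15 clusters, that of UAC 92629658 in 18 and that of UAC + miR-330 97255383 in 19. A UMI (unique molecular identifier) marks 1 captured molecule at its 3′ end, so transcript length does not enter. Levels are set beside each other between genes on the assumption of equal capture, which was not tested. Levels are given as CPM, which are UMIs per 1000000 UMIs of the same clusters, and each difference is a log2 ratio of such levels. B-lineage clusters, named by markers such as Cd79a and Pax5, held 57.4% of all UMIs in sham, 47.9% in UAC and 49.4% in UAC + miR-330. Neutrophil clusters numbered 2, 3 and 3. A single cluster in each library had 13 of 14 macrophage markers raised but none of them among its 10 leading genes, which included Fcnb and Vcan, and it is called the macrophage-marker cluster. A T and NK cluster was found in UAC and in UAC + miR-330 and in sham none was. With 1 library per condition no spread between animals can be estimated and no test was run. The 95% intervals given are exact Poisson intervals and cover counting error only. A gene is counted as changed (rose, fell) when it passed 1.5-fold with at least 100 UMIs added over the libraries compared, and levels are called apart when their intervals do not overlap.

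Among the subunits, Nfkb1, which encodes p105 and its processed form p50, was the most abundant in each library. It stood at 535 CPM over all clusters of sham, 694 in UAC and 768 in UAC + miR-330. Sham was lowest and UAC + miR-330 highest, with all intervals apart. Nfkb1 made up 60.1%, 63.4% and 64.1% of the subunit UMIs. Relb, the partner of p52 in the slower non-canonical branch, stood at 155.0 CPM in sham, 171 in UAC and 166 in UAC + miR-330. Its level in sham was the lowest, and the intervals of the other libraries overlapped. Rel, the c-Rel subunit typical of lymphocytes, stood at 116 CPM in sham, 148 in UAC and 191 in UAC + miR-330, again in rising order with the intervals apart. Nfkb2, the precursor of p52, stood at 46.8, 45.4 and 35.7 CPM in the same order of libraries. It was lowest in UAC + miR-330, while sham and UAC overlapped. Rela, the p65 subunit that carries the main activation domain, was the least abundant subunit in sham and UAC, at 37.1 CPM in sham, 35.3 in UAC and 35.8 in UAC + miR-330. Its 3 intervals overlapped, and in UAC + miR-330 its interval also overlapped that of Nfkb2.

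Across clusters the subunits were high in B-lineage clusters and, for Nfkb1, Rel and Rela, also in the macrophage-marker cluster. B-lineage clusters contributed 83.6% of Nfkb1 UMIs in sham, 71.5% in UAC and 71.0% in UAC + miR-330, more than their share of all UMIs. The macrophage-marker cluster had 84.3%, 84.1% and 81.2% of the B-lineage level of Nfkb1, and 104%, 108% and 94.4% of that of Rel, but 41.8%, 40.2% and 42.5% of that of Relb. In sham, Nfkb1 ran from 65.9 CPM in a neutrophil cluster led by Lcn2 and Ngp to 1085 in a B-lineage cluster led by Trpc4. In UAC + miR-330 its highest level, 1709 CPM, was in the T and NK cluster, apart from the next cluster at 1341. In UAC the T and NK cluster also came first at 1385 CPM, but its interval overlapped that of the Ms4a1-led B-lineage cluster at 1328. Ms4a1 encodes CD20, a marker of mature B cells. Rel peaked in a cluster led by Cxcr5 and Fcer2 that carried both dendritic and B-lineage markers, at 546 CPM in UAC and 713 in UAC + miR-330, apart from all other clusters. No such cluster was found in sham, where Rel was highest in the Ms4a1-led cluster at 271 CPM. Its lowest level in each library was in the chondrocyte-like cluster, at 7.54 CPM in sham, 10.7 in UAC and 10.4 in UAC + miR-330. If the transcripts of Pax5, Ebf1, Cd79b and Vpreb3 counted in that cluster had come from B-lineage cells, these cells would have brought along 57.4%, 45.4% and 32.6% of its Rel UMIs, 46.5%, 34.9% and 30.1% of its Nfkbie UMIs and 24.5%, 25.6% and 15.4% of its Nfkb1 UMIs. For Relb the shares were 26.7%, 18.3% and 15.2%. Whether B-lineage cells brought these transcripts was not tested. Rela was the most even subunit, with its highest cluster 4.67-fold above its lowest in sham, 5.22-fold in UAC and 4.28-fold in UAC + miR-330.

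Among the inhibitors, Nfkbia, which encodes IκBα, led each library. It stood at 408 CPM in sham, 467 in UAC and 362 in UAC + miR-330. UAC was highest and UAC + miR-330 lowest, with all intervals apart. Nfkbia made up 71.8%, 68.6% and 61.4% of the inhibitor UMIs. Nfkbiz, a nuclear IκB protein (IκBζ) that can also help NF-κB activate genes, stood at 60.5 CPM in sham, 88.9 in UAC and 90.1 in UAC + miR-330, with sham lower than the others. Nfkbie, encoding IκBε, stood at 50.7, 60.1 and 70.1 CPM in the same order, each apart from the next. Bcl3, a nuclear IκB protein that binds p50 and p52 dimers, stood at 35.8 CPM in sham, 43.9 in UAC and 36.2 in UAC + miR-330. UAC was the high library for Bcl3, and sham and UAC + miR-330 overlapped. Tnfaip3, encoding A20, an enzyme that edits ubiquitin chains to shut the signal off upstream, was the scarcest member, at 13.1 CPM in sham, 20.7 in UAC and 31.7 in UAC + miR-330. Its levels were in rising order with all intervals apart.

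The inhibitors did not share 1 pattern across clusters. Nfkbiz was highest in the macrophage-marker cluster of each library, at 325 CPM in sham, 481 in UAC and 369 in UAC + miR-330. The next cluster, a neutrophil cluster led by Stfa2 and interferon-induced genes, was apart and lower in each, at 183, 211 and 255 CPM. B-lineage clusters held 30.3%, 21.5% and 24.7% of Nfkbiz UMIs, below their share of all UMIs. Nfkbia peaked in that same Stfa2-led neutrophil cluster in sham at 1200 CPM and in UAC + miR-330 at 1251, and in the macrophage-marker cluster in UAC at 1491. Nfkbie instead went with the subunits, with 87.5%, 78.8% and 80.1% of its UMIs in B-lineage clusters. Tnfaip3 was highest in the macrophage-marker cluster of sham at 52.0 CPM, and in the T and NK clusters of UAC at 97.7 and of UAC + miR-330 at 197. The T and NK cluster held 11.2% of Tnfaip3 UMIs in UAC and 14.9% in UAC + miR-330 with 2.37% and 2.39% of all UMIs. Bcl3 was highest in the Ms4a1-led cluster of each library, at 106 CPM in sham, 127 in UAC and 105 in UAC + miR-330, and the macrophage-marker cluster came next with overlapping intervals.

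**Figure D1:**
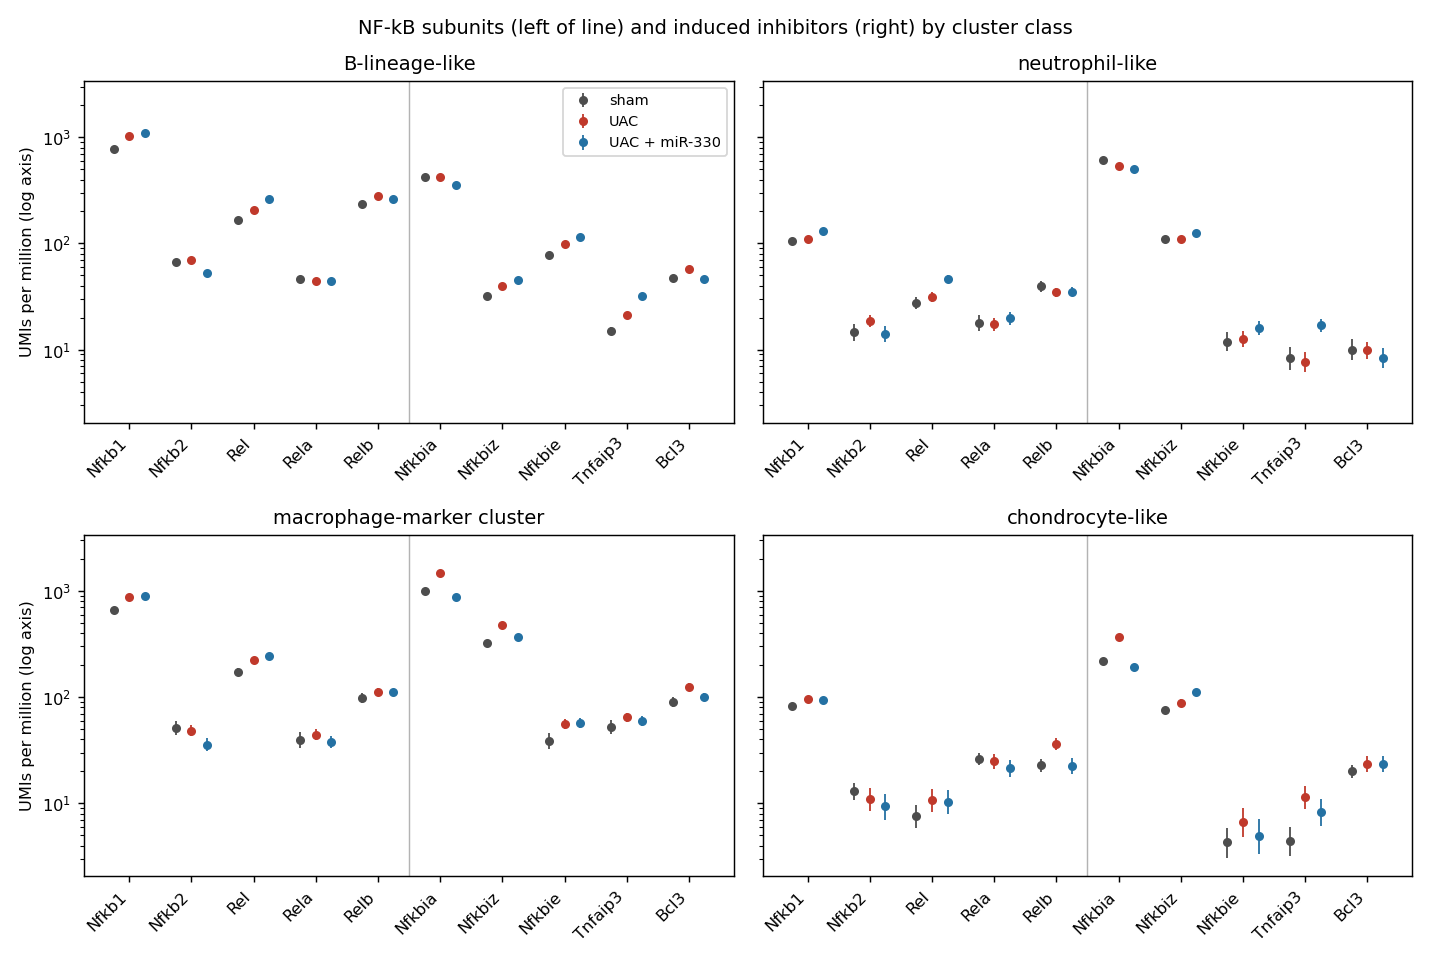
Level of each member in CPM (UMIs per 1000000 UMIs, log axis) in 4 cluster classes, with 1 coloured point per library (grey sham, red UAC, blue UAC + miR-330) and bars for exact 95% Poisson intervals. Nfkb1 exceeds Nfkbia in B-lineage clusters (779 against 420.4 in sham) and lies below it in neutrophil clusters (105 against 612 in sham).

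The balance between both groups was taken as inhibitor UMIs per subunit UMI, a ratio within a cluster that does not depend on how libraries are scaled. Over all clusters it was 0.639 in sham (95% interval 0.632 to 0.647), 0.622 in UAC (0.616 to 0.628) and 0.493 in UAC + miR-330 (0.488 to 0.498). The ratio was thus lowest in UAC + miR-330 and highest in sham, with the intervals apart, but this order of libraries rested on the leading members. Without Nfkbia it was 0.180, 0.195 and 0.191, lowest in sham, and without Nfkb1 it was 1.60, 1.70 and 1.375, highest in UAC. B-lineage clusters lay below 1 without exception, from 0.392 to 0.538 in the 9 of sham, 0.323 to 0.535 in the 8 of UAC and 0.291 to 0.407 in the 9 of UAC + miR-330. Neutrophil clusters lay above 1 without exception, from 2.33 to 4.59 in sham, 1.75 to 4.51 in UAC and 1.55 to 3.75 in UAC + miR-330. Of all clusters, 5 of 15 in sham, 7 of 18 in UAC and 7 of 19 in UAC + miR-330 had more inhibitor than subunit UMIs.

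Summed by class, B-lineage clusters had 0.459 inhibitor UMIs per subunit UMI in sham, 0.392 in UAC and 0.344 in UAC + miR-330, in falling order. Neutrophil clusters had 3.69, 3.19 and 2.71, also in falling order with the intervals apart. Within them, the Stfa2-led cluster had 4.59, 4.51 and 3.75 and the Lcn2- and Ngp-led cluster, which holds earlier granule genes, had 2.33, 1.75 and 1.55. The macrophage-marker cluster had 1.49 in sham, 1.71 in UAC and 1.10 in UAC + miR-330, with UAC highest and UAC + miR-330 lowest. The chondrocyte-like cluster had 2.14 in sham (2.002 to 2.28), 2.77 in UAC (2.59 to 2.98) and 2.16 in UAC + miR-330 (1.999 to 2.34). UAC stood above both other libraries there, and these overlapped. Without Nfkbia UAC + miR-330 was the highest library in this cluster. The falling order of libraries in B-lineage and in neutrophil clusters was lost without Nfkbia, where no intervals were computed. The side of 1 on which a class lay rested on the leading members, except that B-lineage clusters of UAC + miR-330 stayed below 1. Neutrophil clusters lay above B-lineage clusters with and without the leading members. Without Nfkbia the neutrophil clusters of sham had 0.691 inhibitor UMIs per subunit UMI and the B-lineage clusters 0.133, both below 1, and without Nfkb1 they had 7.57 and 1.155, both above 1.

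**Figure D2:**
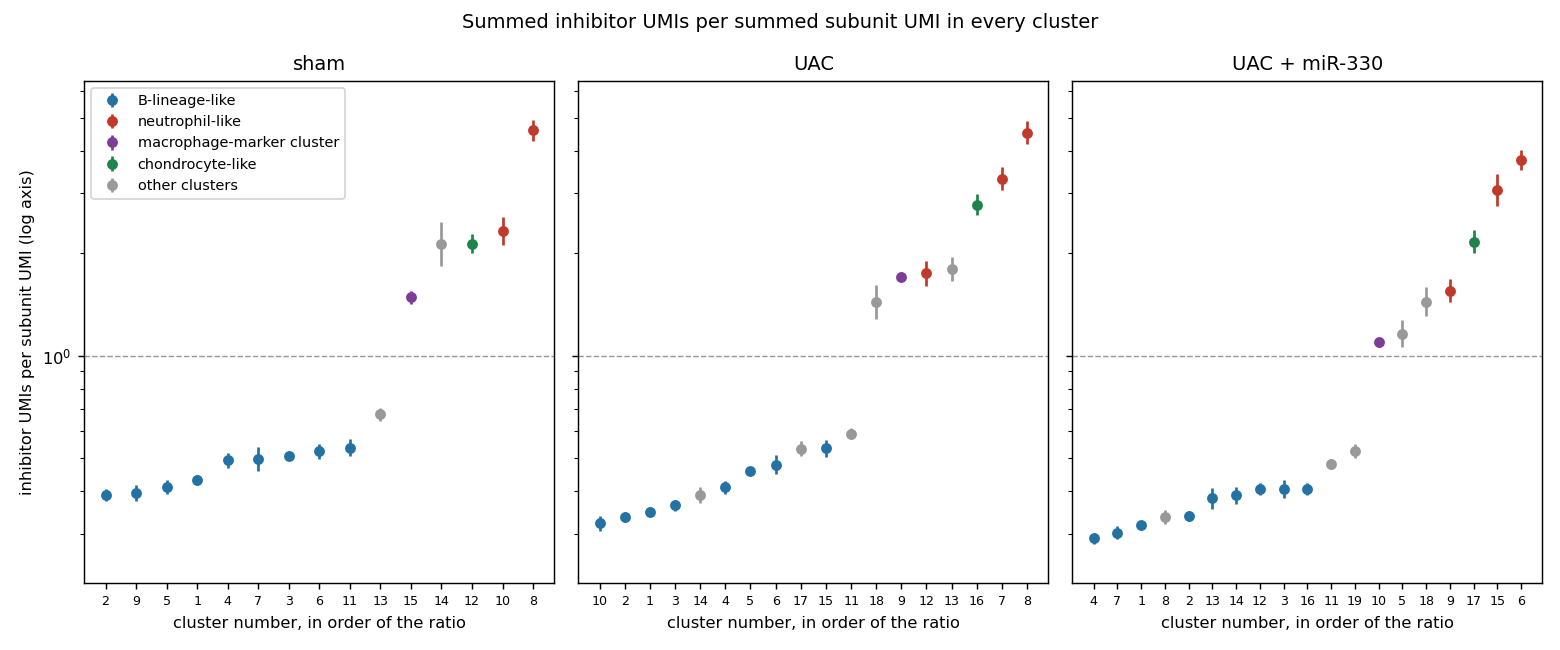
Inhibitor UMIs per subunit UMI (log axis) for every cluster of each library in order of the ratio, with points coloured by cluster class, bars for exact 95% intervals and a dashed line at 1. B-lineage clusters end at 0.538 in sham, 0.535 in UAC and 0.407 in UAC + miR-330, and neutrophil clusters begin at 2.33, 1.75 and 1.55.

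The comparison of UAC with sham asks what overloading of the joint does to the pathway. The summed subunits stood at 889 CPM in sham and 1094 in UAC, a log2 ratio of 0.30 (1.23-fold). The summed inhibitors stood at 569 and 680.4 CPM, a log2 ratio of 0.26 (1.20-fold). Both groups were higher in UAC, also without scaling (0.494 and 0.455) and relative to the median of all genes (0.32 and 0.28). Leaving out this scaling shifts every log2 ratio by 0.20 in this comparison and by 0.24 in that of UAC + miR-330 with UAC. Of the 10 members, 8 were apart and higher in UAC and 0 lower, where 25.4% of all genes were apart and higher and 28.7% lower, by a rule that abundant genes meet more easily. Nfkb2 and Rela overlapped. Only Tnfaip3 passed 1.5-fold, with a log2 ratio of 0.66 (interval 0.55 to 0.77), and no member passed it downwards, where 6.17% of genes rose and 5.39% fell. Without the T and NK cluster of UAC, Tnfaip3 stood at 13.1 CPM in sham and 18.8 in UAC, a log2 ratio of 0.52, and no member passed 1.5-fold. Sham has no such cluster, so only UAC lost UMIs, while T and NK markers counted in other clusters of sham stayed in. Over all clusters Nfkbiz came next after Tnfaip3, with a log2 ratio of 0.56 between 60.5 and 88.9 CPM. Without the T and NK cluster Nfkbiz was at 0.53.

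In B-lineage clusters, Nfkb1 stood at 779 CPM in sham and 1035 in UAC, a log2 ratio of 0.41. Nfkbia stood at 420.4 and 422 CPM, with overlapping intervals. Nfkb1 was thus higher in UAC while Nfkbia was level. Of the 10 members 0 passed 1.5-fold, where 2.3% of genes rose and 1.88% fell. Without scaling 2 passed it, Nfkb1 at 0.606 and Tnfaip3 at 0.685, and Nfkbia was at 0.203. The other inhibitors were each apart and higher in UAC, with log2 ratios of 0.324 (Nfkbiz), 0.356 (Nfkbie), 0.489 (Tnfaip3) and 0.280 (Bcl3). Over the class, the summed subunits had a log2 ratio of 0.34 and the inhibitors 0.11. Without their leading members, Nfkb1 and Nfkbia, these became 0.223 and 0.342, so the lower sum of the inhibitors rested on Nfkbia. The class mixes stages of B-cell development, and the sums turned on which stage was read. In the Ms4a1-led cluster alone the subunits had a log2 ratio of 0.32 and the inhibitors -0.04. Ccl5 and Ccl4 were among the leading genes of that cluster in sham and not in UAC, and their part in these values was not tested. When the cluster with the most B-lineage markers stood for the class, an Ms4a1-led cluster of sham was paired with a UAC cluster that had Rag1, an early B-cell gene, among its leading genes, and the log2 ratios were -0.003 for subunits and -0.08 for inhibitors. In sham 2 clusters had the same number of B-lineage markers, 7, and the one with more of them at 50 CPM was used. With the other, a choice made after seeing the data, the log2 ratios were 0.16 and 0.22.

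Neutrophil clusters gave a result that turned on which clusters were read. Nfkbia, in their sum the member with the most UMIs, stood at 612 CPM in sham and 538 in UAC, a log2 ratio of -0.18. It was lower in UAC with the intervals apart, but without scaling the log2 ratio was 0.01. The other 9 members overlapped and 0 passed 1.5-fold either way, where 2.43% of genes rose and 7.5% fell. In the Stfa2-led cluster alone, the summed inhibitors had a log2 ratio of 0.21, against -0.15 for the class. When the cluster with the most neutrophil markers stood for the class, the Stfa2-led cluster of sham was paired with a UAC cluster led by Mmp9 and Fpr1 (no sham cluster was led by these genes). The log2 ratios were then -0.82 for subunits and -1.29 for inhibitors, with -1.35 for Nfkbia and -2.90 for Bcl3. That sham cluster shared its number of markers, 13, with the Lcn2- and Ngp-led one and was used for having more of them at 50 CPM. With the Lcn2- and Ngp-led cluster, a choice made after seeing the data, the direction turned, at 0.41 for subunits, 0.92 for inhibitors, 1.00 for Nfkbia and 0.61 for Bcl3. Dissociation genes, an immediate-early and heat-shock list that tissue digestion can switch on, rose for 7 of 19 in these clusters and fell for 0, with a median log2 ratio of 0.33 against -0.02 for all genes. Their part in the members' values was not tested.

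In the macrophage-marker cluster, Nfkbia stood at 1007 CPM in sham (974 to 1042) and 1491 in UAC (1460 to 1523), a log2 ratio of 0.57. Nfkbiz stood at 325 and 481 CPM, with the same log2 ratio. Nfkb1 stood at 656.5 and 869.8 CPM, a log2 ratio of 0.41. All of them were higher in UAC, Nfkbia and Nfkbiz by more than Nfkb1. Nfkbie, at 0.525, and Bcl3, at 0.462, were also apart and higher. Tnfaip3, at 52.0 and 64.6 CPM, had a log2 ratio of 0.311 with overlapping intervals. Of the 10 members 0 passed 1.5-fold, where 3.09% of genes rose and 6.5% fell. Relative to the median of all genes 2 passed it, Nfkbia and Nfkbiz, both at 0.61, and without scaling 5 did. The content of this cluster also differed between libraries. Its 14 macrophage markers summed to 3374 CPM in sham, 1958 in UAC and 2058 in UAC + miR-330, and 13 erythroid markers summed to 1202, 85.7 and 99.4. C1qa was the most abundant macrophage marker in sham at 655 CPM, and Cd68 in UAC at 479 and in UAC + miR-330 at 419.9. Of the dissociation genes 0 of 18 rose and 3 fell there, with a median log2 ratio of 0.01 against -0.04 for all genes. The part of these differences in the members' values was not tested.

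In the chondrocyte-like cluster, Nfkbia stood at 220.4 CPM in sham (211 to 230.3) and 365 in UAC (349.7 to 380.5), and rose by a log2 ratio of 0.73. Relb stood at 22.7 and 36.1 CPM, and rose by 0.67. Tnfaip3 stood at 4.435 CPM in sham and 11.4 in UAC, from 40 and 68 UMIs, and rose by 1.35 (0.77 to 1.96). These were 3 of the 9 members with enough UMIs, and 0 fell, where 8.19% of genes rose and 1.09% fell. Nfkbie had 39 and 40 UMIs, below the minimum. Rela, at 25.9 and 25.1 CPM, was level between the libraries. Nfkbiz was apart and higher at 0.235, within 1.5-fold, and Bcl3, at 0.224, overlapped. The summed inhibitors had a log2 ratio of 0.61 and the subunits 0.23. Without Nfkbia the inhibitors were at 0.321, and without Nfkb1 the subunits were at 0.262. The median for all genes was 0.12. Relative to that median, Nfkbia was at 0.61 and Tnfaip3 at 1.23, still past 1.5-fold, and Relb at 0.55, within it. The value of Nfkbia was then 0.61 in the macrophage-marker cluster too.

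This cluster held neutrophil transcripts as well, with 11 of 17 neutrophil markers at 10 UMIs or more in sham, 10 in UAC and 10 in UAC + miR-330. They summed to 1266 CPM in sham, 4413 in UAC and 874 in UAC + miR-330, led by S100a9 at 495 in sham and 1891 in UAC and by S100a8 at 335 in UAC + miR-330. Stfa3 was at 0 in each library. Macrophage markers summed to 82.2, 125 and 94.1 CPM in the cluster and T and NK markers to 6.21, 14.05 and 4.25. Osteoclast markers summed to 539, 684 and 565 CPM. All of these were also highest in UAC, and their part in the value of Nfkbia was not tested. At the ratio found in neutrophil clusters, the 26391 neutrophil marker UMIs of UAC would bring 35.2 Nfkbia UMIs of the 2182 counted, or 1.61%. For Tnfaip3 it would be 0.498 of 68 UMIs. These values assume the profile of the neutrophil clusters, and the part of neutrophil transcripts in either rise was not tested. Dissociation genes rose for 7 of 19 in the cluster and fell for 0, with a median log2 ratio of 0.48 against 0.12 for all genes. Jun stood at 409 CPM in sham and 793 in UAC, and Zfp36 at 215 and 368. Whether digestion had a part in the rise of Nfkbia and Tnfaip3 was not tested.

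The comparison of UAC + miR-330 with UAC asks what supplied miR-330 does in the overloaded joint. It shares the UAC library with the comparison above, so a high or low value in UAC enters both. The summed subunits stood at 1094 CPM in UAC and 1197 in UAC + miR-330, a log2 ratio of 0.13, which became -0.003 relative to the median of all genes. The summed inhibitors stood at 680.4 and 590.3 CPM, a log2 ratio of -0.21, which became 0.03 without scaling and 0.10 when Nfkbia was left out. Neither group thus had a direction that held under each choice. The ratio of inhibitors to subunits was lower in UAC + miR-330, at 0.493 against 0.622, but without Nfkbia it was 0.191 against 0.195 over all clusters. By class it was then 0.138 against 0.133 in B-lineage and 0.674 against 0.657 in neutrophil clusters, where no intervals were computed, higher in the chondrocyte-like cluster (0.944 against 0.728) and lower in the macrophage-marker cluster (0.441 against 0.560). Of the 10 members 4 were apart and higher in UAC + miR-330 and 3 lower, where 44.2% of genes were apart and higher and 20.1% lower. The higher ones were Nfkb1, Rel, Nfkbie and Tnfaip3, and the lower ones were Nfkb2, Nfkbia and Bcl3. Only Tnfaip3 passed 1.5-fold upwards, with a log2 ratio of 0.62, or 0.48 relative to the median gene, and none passed it downwards, where 10.5% of genes rose and 2.97% fell. Without the T and NK clusters Tnfaip3 stood at 18.8 CPM in UAC and 27.7 in UAC + miR-330, a log2 ratio of 0.56, and no member passed 1.5-fold. Nfkbia had a log2 ratio of -0.37, or -0.50 relative to the median gene and -0.13 without scaling.

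In B-lineage clusters, Tnfaip3 stood at 15.1 CPM in sham, 21.2 in UAC and 32.2 in UAC + miR-330, and rose by a log2 ratio of 0.60 from UAC to UAC + miR-330. It was the only 1 of 10 members to pass 1.5-fold and none fell, where 7.62% of genes rose and 3.93% fell. Relative to the median gene its log2 ratio was 0.54, within 1.5-fold. Rel stood at 206 CPM in UAC and 259.7 in UAC + miR-330, a log2 ratio of 0.33. Nfkb2 stood at 69.3 and 52.8 CPM, a log2 ratio of -0.39. The subunits thus moved apart from each other in these clusters. The summed inhibitors had a log2 ratio of -0.11, which became 0.12 without scaling and also 0.12 without Nfkbia.

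In neutrophil clusters, Tnfaip3 stood at 8.33 CPM in sham, 7.62 in UAC and 16.9 in UAC + miR-330, from 65, 87 and 175 UMIs. It rose from UAC to UAC + miR-330 by a log2 ratio of 1.15 (0.77 to 1.54), or 0.88 relative to the median gene, and sham and UAC overlapped. It was again 1 of 10, and none fell, although Nfkb2 was at -0.68 relative to the median gene. Of all genes 21.4% rose and 1.72% fell there, the largest share of rising genes among these classes in either comparison. The summed subunits had a log2 ratio of 0.22, which became -0.05 relative to the median of all genes, and that median was 0.27. Of 19 dissociation genes 3 rose and 0 fell, with a median log2 ratio of 0.06 against 0.27 for all genes.

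In the macrophage-marker cluster, Nfkbia stood at 1491 CPM in UAC and 871 in UAC + miR-330 (847 to 895), and fell by 0.776 on the log2 scale. Relative to the median gene the log2 ratio was -0.94, and without scaling it was -0.54, within 1.5-fold. Nfkbia in UAC + miR-330 thus lay below its CPM in sham, but without scaling it lay above, as the log2 ratio from sham to UAC was then 0.76. Nfkbiz stood at 481 and 369 CPM, a log2 ratio of -0.38, and Bcl3 at 125 and 100.1, a log2 ratio of -0.32. The other inhibitors had overlapping intervals, Tnfaip3 at 64.6 and 59.6 CPM and Nfkbie at 56.2 and 56.6. Among the subunits, Nfkb2 stood at 48.2 and 35.75 CPM, a log2 ratio of -0.43, or -0.60 relative to the median gene, past 1.5-fold. Nfkb1 was level, at 869.8 and 897 CPM. Of the 10 members 1 fell and 0 rose, where 12.5% of genes rose and 2.51% fell. Of 18 dissociation genes 2 rose and 4 fell, among them Zfp36, at 627.5 CPM in UAC and 354 in UAC + miR-330. Neutrophil markers summed to 6458 CPM in this cluster of sham, 6254 in UAC and 4136 in UAC + miR-330. The part of either in the fall of Nfkbia was not tested.

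In the chondrocyte-like cluster, Nfkbia stood at 365 CPM in UAC and 191 in UAC + miR-330 (180.1 to 203), and fell by 0.932 on the log2 scale, and the log2 ratio was -0.70 without scaling. Relb stood at 36.1 and 22.4 CPM, and fell by 0.685, which was -0.45 and within 1.5-fold without scaling. The CPM of Nfkbia in UAC + miR-330 was below that in sham, but without scaling it lay above, as the log2 ratio from sham to UAC was then 0.92. That of Relb overlapped sham. Tnfaip3 stood at 11.4 and 8.33 CPM, with overlapping intervals. Nfkbiz stood at 88.5 and 111 CPM, a log2 ratio of 0.33, and so was higher while Nfkbia was lower. These were 2 of 9 members that fell and 0 that rose, where 7.7% of genes rose and 6.42% fell. The summed inhibitors had a log2 ratio of -0.55, which became 0.19 without Nfkbia, and the subunits had -0.19, which became 0.05 without scaling. Of 19 dissociation genes 9 fell and 0 rose, with a median log2 ratio of -0.58 against 0.02 for all genes. Atf3 stood at 416 CPM in UAC and 209 in UAC + miR-330. The cluster's content differed too, with Col2a1 and Col10a1 among its leading genes in UAC and Fibin and Tnc in UAC + miR-330. It held 11.6% of all UMIs in sham, 6.46% in UAC and 6.05% in UAC + miR-330. The part of dissociation genes or of this content in the fall of Nfkbia was not tested.

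**Figure D3:**
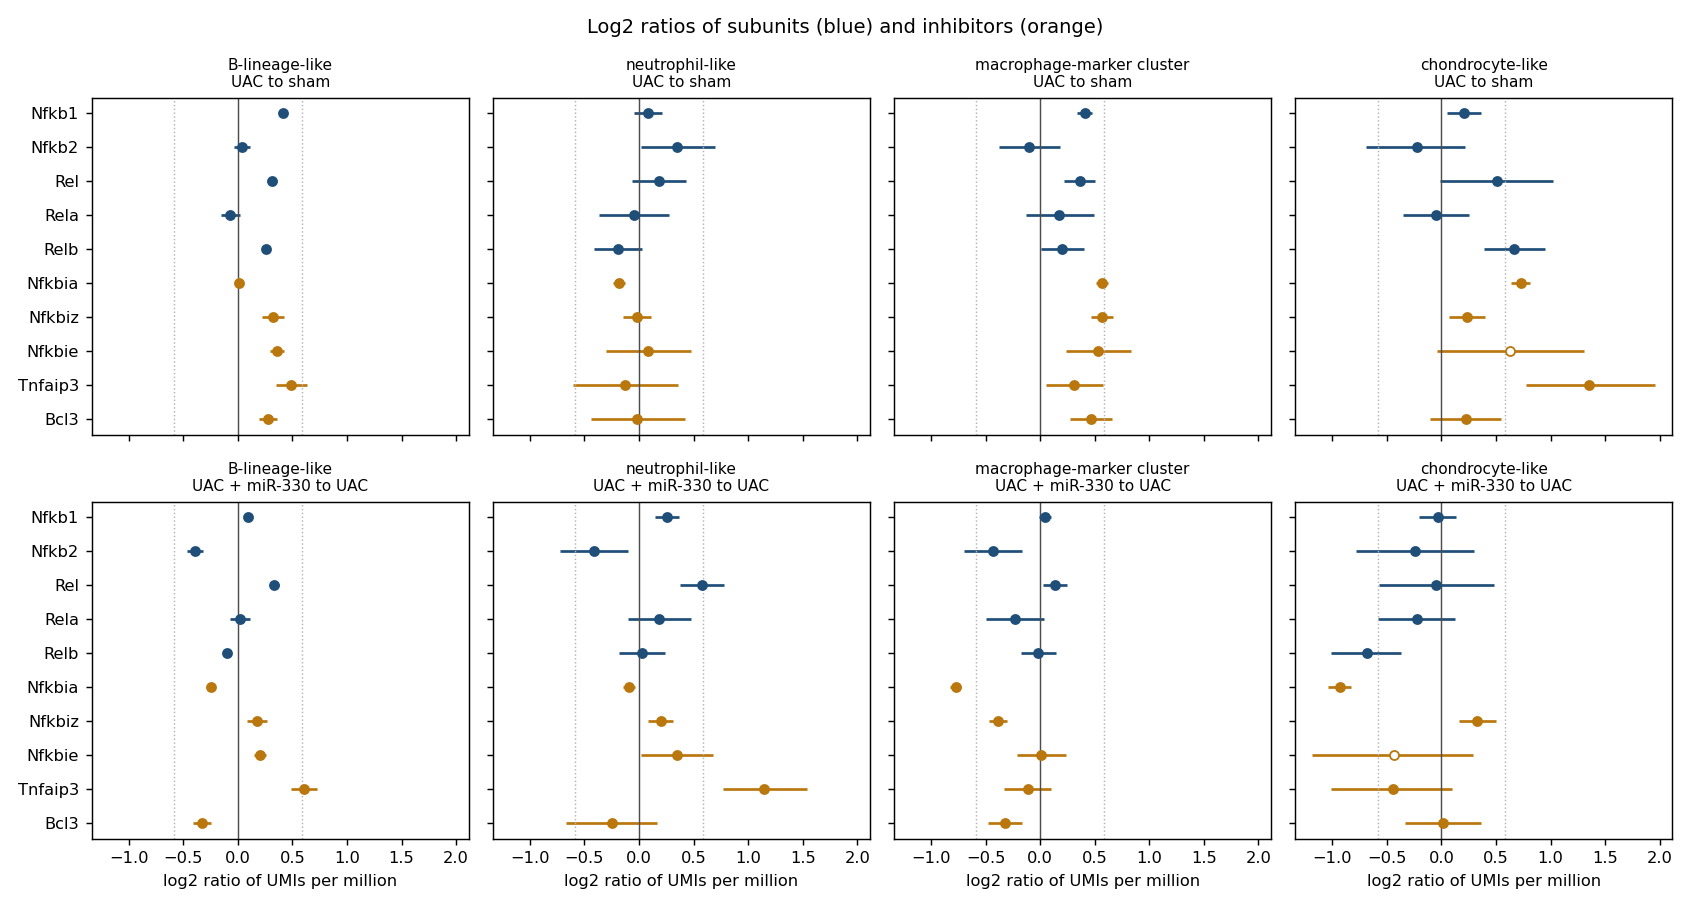
Log2 ratio of the CPM of each member in 4 cluster classes, UAC to sham above and UAC + miR-330 to UAC below, with subunits in blue, inhibitors in orange, 95% intervals as bars, dotted lines at 1.5-fold and open points below 100 UMIs. Nfkbia in the chondrocyte-like cluster lies at 0.73 in the upper and -0.93 in the lower panel.

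The genes that NF-κB switches on were followed as a list of 29 cytokines, chemokines, enzymes and survival genes. Over all clusters 16 of 28 with enough UMIs rose from sham to UAC and 1 fell, where 6.17% of all genes rose and 5.39% fell, with a median log2 ratio of 0.71 against -0.02 for all genes. From UAC to UAC + miR-330, 1 of 26 rose and 6 fell, where 10.5% of all genes rose and 2.97% fell, with a median of -0.29 against 0.13. No difference between the list and the members was tested. Cxcl1, a neutrophil chemoattractant, stood at 13.9 CPM in sham, 38.6 in UAC and 8.503 in UAC + miR-330. Ccl3, a chemokine of macrophages, stood at 50.3, 140.4 and 55.4 CPM. Both were highest in UAC. Vcam1, an adhesion molecule, went the other way, at 8.15, 1.38 and 3.55 CPM. Clec4e, a receptor for mycobacterial lipids, stood at 3.06, 8.74 and 8.71 CPM, and Ccl2, a monocyte chemoattractant, at 48.7, 63.2 and 28.4. Clec4e thus rose in UAC and was level after it, while Ccl2 fell from UAC to UAC + miR-330. Lcn2, Cd83 and Birc3, the list's most abundant genes, differed less from UAC to UAC + miR-330. Lcn2, a neutrophil granule protein, stood at 471.5 CPM in sham, 815 in UAC and 744 in UAC + miR-330. Birc3, which holds back cell death, stood at 248, 319 and 362 CPM, and Cd83, a surface protein of activated B and dendritic cells, at 270.0, 362 and 341.

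By class, the induced genes rose from sham to UAC for 12 of 24 in B-lineage clusters (2 fell), 4 of 23 in neutrophil clusters (1 fell), 9 of 25 in the macrophage-marker cluster (1 fell) and 9 of 15 in the chondrocyte-like cluster (0 fell). Of all genes 2.3%, 2.43%, 3.09% and 8.19% rose in these classes. From UAC to UAC + miR-330 they fell for 9 of 24, 3 of 23, 16 of 24 and 9 of 14 in the same classes, and rose for 1, 1, 1 and 0. Of all genes 3.93%, 1.72%, 2.51% and 6.42% fell and 7.62%, 21.4%, 12.5% and 7.7% rose. The median log2 ratio was -0.77 in the macrophage-marker cluster, against 0.17 for all genes, and -0.82 in the chondrocyte-like cluster, against 0.02. In the macrophage-marker cluster Ccl3 stood at 1153 CPM in UAC and 246 in UAC + miR-330, and Ptgs2, which encodes cyclooxygenase-2, at 146 and 31.6. In the chondrocyte-like cluster Cxcl1 stood at 9.09 CPM in sham, 55.5 in UAC and 6.63 in UAC + miR-330. The inhibitor Nfkbia was high in UAC and low in UAC + miR-330 in both the macrophage-marker and the chondrocyte-like cluster, as were Ccl3 in the macrophage-marker and Cxcl1 in the chondrocyte-like cluster. In the chondrocyte-like cluster the neutrophil markers, at 1266, 4413 and 874 CPM, and the dissociation genes, of which 7 of 19 rose and then 9 fell, moved the same way. In the macrophage-marker cluster neutrophil markers stood at 6254 CPM in UAC and 4136 in UAC + miR-330. Of 18 dissociation genes 4 fell and 2 rose there. The part of these in the values of the induced genes was not tested.

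The other 3 lists of the pathway were counted by the same rule. Of 18 other inhibitors and brakes, 1 of 17 rose and 0 fell from sham to UAC over all clusters, with a median log2 ratio of 0.20 against -0.02 for all genes, of which 6.17% rose and 5.39% fell. Then 0 of 18 rose and 1 fell from UAC to UAC + miR-330, with a median of 0.14 against 0.13 for all genes, of which 10.5% rose and 2.97% fell. The riser was Trib1, a pseudokinase, at 18.4 CPM in sham and 34.2 in UAC. The one that fell was Nfkbib, encoding IκBβ, at 71.5 CPM in UAC and 45.6 in UAC + miR-330. Sqstm1 and Tax1bp1 were the most abundant of them. Tax1bp1, an adaptor of A20, stood at 309 CPM in sham, 378 in UAC and 438 in UAC + miR-330. Sqstm1, a signalling scaffold, stood at 316, 320.1 and 249.9 CPM and Traf3, a brake on the non-canonical branch, at 155, 178 and 219.8. In the chondrocyte-like cluster 1 of 16 rose and 2 fell from UAC to UAC + miR-330, where 7.7% of all genes rose and 6.42% fell. Cyld, a deubiquitinase, stood there at 17.4 and 28.4 CPM and Zc3h12a, an RNase that degrades cytokine transcripts, at 13.7 and 7.14.

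Of 25 kinases and adaptors 24 were listed. Over all clusters 1 of 23 rose and 0 fell from sham to UAC, with a median log2 ratio of 0.11, where 6.17% of all genes rose and 5.39% fell, with a median of -0.02. In UAC + miR-330 against UAC, 3 of 23 rose and 0 fell, with a median of 0.07, where 10.5% of all genes rose and 2.97% fell, with a median of 0.13. Irak2, a kinase below the interleukin-1 receptor, stood at 77.1 CPM in sham, 121 in UAC and 109 in UAC + miR-330. Malt1, a protease of lymphocyte receptor signalling, stood at 76.8, 107 and 163 CPM. Malt1 was highest in UAC + miR-330, in the same order as Rel and Tnfaip3. Tab3, an adaptor of the kinase TAK1, stood at 2.55, 3.73 and 6.60 CPM, also in rising order. Bcl10, the partner of Malt1, had a log2 ratio of -0.44 from UAC to UAC + miR-330, where it stood at 73.8 CPM. In neutrophil clusters 7 of 18 rose from UAC to UAC + miR-330 and 0 fell, where 21.4% of all genes rose, with a median of 0.25 against 0.27 for all genes, and Irak4, a kinase of Toll-like receptors, stood there at 4.99 and 12.6 CPM, against 8.71 and 13.4 over all clusters.

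Of 20 receptors 19 were listed. Over all clusters 7 of 19 rose and 0 fell from sham to UAC, with a median log2 ratio of 0.44 against -0.02 for all genes, of which 5.39% fell. Between UAC and UAC + miR-330, 3 rose and 1 fell, with a median of 0.07 against 0.13 for all genes, of which 10.5% rose and 2.97% fell. Il1r2, a decoy receptor for interleukin-1, stood at 69.3 CPM in sham, 112 in UAC and 82.5 in UAC + miR-330. Il18r1, the interleukin-18 receptor, stood at 1.60, 3.57 and 5.88 CPM. Cd14, a coreceptor for bacterial lipopolysaccharide, stood at 22.5, 40.8 and 23.9 CPM. Cd14 and Il1r2 were highest in UAC and Il18r1 in UAC + miR-330. Tnfrsf1b, the second receptor of tumour necrosis factor, stood at 15.7, 31.2 and 31.5 CPM. Il1rap, the shared chain of interleukin-1 receptors, stood at 31.2, 34.8 and 56.4, and Tlr9, a sensor of bacterial DNA, at 1.29, 0.993 and 1.72. Tnfrsf1b thus rose in UAC, and Il1rap and Tlr9 were highest in UAC + miR-330. Within classes the receptors that rose from sham to UAC were 2 of 13 in B-lineage clusters, 0 of 12 in neutrophil clusters, 1 of 14 in the macrophage-marker cluster and 0 of 7 in the chondrocyte-like cluster, where 2.3%, 2.43%, 3.09% and 8.19% of all genes rose, against 6.17% over all clusters. The part of class shares in the count over all clusters was not tested. Tnfrsf13c, the BAFF receptor that signals through Relb and Nfkb2, was the most abundant, at 222 CPM in sham, 239 in UAC and 189.7 in UAC + miR-330. Il17ra stood at 134, 155 and 167 CPM.

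The list of dissociation genes over all clusters had 1 of 20 risen and 0 fallen from sham to UAC, with a median log2 ratio of 0.24 against -0.02 for all genes, of which 6.17% rose and 5.39% fell. None rose and 2 fell from UAC to UAC + miR-330, with a median of -0.13 against 0.13 for all genes, of which 10.5% rose and 2.97% fell. In B-lineage clusters 2 of 19 rose and 0 fell from sham to UAC, where 2.3% of all genes rose and 1.88% fell, then 1 rose and 1 fell, where 7.62% rose and 3.93% fell. Jund, the most abundant of them, stood at 1687 CPM in sham, 1640 in UAC and 1445 in UAC + miR-330. Hspa8 stood at 973.5, 916 and 801 CPM and Btg2 at 746, 792 and 1013. Klf2, the one that rose, stood at 9.90 CPM in sham and 15.4 in UAC. Dusp1 stood at 225 CPM in UAC and 142 in UAC + miR-330, and Zfp36 at 205 and 134, and both fell.

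Profiles over the clusters of a library were compared by Pearson correlation of log2 levels, over 15 clusters in sham, 18 in UAC and 19 in UAC + miR-330 that share a preparation, as a description without a p. Nfkb1 and Relb had r = 0.96, 0.95 and 0.94, and Nfkb1 and Rela 0.92, 0.90 and 0.91. The lowest of the subunit pairs was Nfkb2 and Rela in UAC, with r = 0.82. Nfkbie was also close to Nfkb1, with r = 0.97, 0.95 and 0.90. Likeness to Nfkb1 was ranked among genes with at least 500 UMIs in each library. Relb came 13th, Nfkbie 33rd, Rel 50th, Rela 222nd and Nfkb2 228th. Nfkbia and Nfkb1 had r = 0.41, 0.35 and 0.33, and Nfkbiz and Nfkb1 had -0.52, -0.30 and -0.26. Among the inhibitors, Tnfaip3 and Bcl3 were alike, with r = 0.80, 0.83 and 0.72, and Nfkbiz and Nfkbie were opposed, with -0.58, -0.41 and -0.45. Of 8963 genes with at least 500 UMIs in each library, those most like Nfkb1 were Eml4, Zfand6, Ube3c, AC241873.1 and Elk4, with mean r from 0.967 to 0.957. Those most like Nfkbia were Irf7, Trim26, Usp32, Cyld and Ier5, with mean r from 0.844 to 0.833.

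Promoters are shown because Nfkbia and Tnfaip3 rose from sham to UAC in the chondrocyte-like cluster while Rela was level. The windows hold 250 bases before and 50 bases from the transcription start and come from RefSeq, build GRCr8. Of the 10 members 9 were matched, all but Relb. Each was searched on both strands for the κB decamer, the consensus that NF-κB dimers bind. It was found in 8 of the 9, at least once in each matched inhibitor, and it is present in 7.51% of all 33469 windows (2515) and in 8.16% of genes. Nfkb1, Nfkb2, Nfkbia, Nfkbiz, Nfkbie and Bcl3 had 1 match each and Tnfaip3 3. Rel had 4, which are 2 stretches that match on both strands 1 base apart. Rela had none. A match describes letters in this window and shows no binding. In the chondrocyte-like cluster Nfkb1, Nfkb2, Rel, Nfkbiz and Bcl3, which have matches, stayed within 1.5-fold from sham to UAC. Nfkbie, also with a match, was below the count minimum there, and Relb, which rose, had no window. Capitals mark the matches in the windows of Nfkb1 (chr2:226805413-226805712, minus strand), Rela (chr1:212354086-212354385, plus strand), Nfkbia (chr6:78597023-78597322, minus strand), Nfkbiz (chr11:58251471-58251770, plus strand) and Tnfaip3 (chr1:15543930-15544229, minus strand), each written 5′ to 3′.
Nfkb1: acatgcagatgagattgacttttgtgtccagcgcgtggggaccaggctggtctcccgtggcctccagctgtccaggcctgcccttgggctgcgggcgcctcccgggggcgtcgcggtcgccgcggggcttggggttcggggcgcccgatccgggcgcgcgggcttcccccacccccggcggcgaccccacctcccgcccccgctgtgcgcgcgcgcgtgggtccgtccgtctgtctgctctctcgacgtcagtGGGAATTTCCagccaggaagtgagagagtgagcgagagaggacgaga
Rela: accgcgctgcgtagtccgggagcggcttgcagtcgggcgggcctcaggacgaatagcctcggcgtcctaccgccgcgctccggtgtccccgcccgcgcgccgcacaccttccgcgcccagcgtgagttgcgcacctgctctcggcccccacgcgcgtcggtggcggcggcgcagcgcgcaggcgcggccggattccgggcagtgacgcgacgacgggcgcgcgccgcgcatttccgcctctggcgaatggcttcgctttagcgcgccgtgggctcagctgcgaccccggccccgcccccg
Nfkbia: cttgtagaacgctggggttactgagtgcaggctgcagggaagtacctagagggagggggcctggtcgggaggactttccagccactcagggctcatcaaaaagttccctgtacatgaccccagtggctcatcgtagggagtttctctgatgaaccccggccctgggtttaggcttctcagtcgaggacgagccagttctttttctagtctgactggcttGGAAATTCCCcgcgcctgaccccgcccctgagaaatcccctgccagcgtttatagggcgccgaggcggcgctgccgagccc
Nfkbiz: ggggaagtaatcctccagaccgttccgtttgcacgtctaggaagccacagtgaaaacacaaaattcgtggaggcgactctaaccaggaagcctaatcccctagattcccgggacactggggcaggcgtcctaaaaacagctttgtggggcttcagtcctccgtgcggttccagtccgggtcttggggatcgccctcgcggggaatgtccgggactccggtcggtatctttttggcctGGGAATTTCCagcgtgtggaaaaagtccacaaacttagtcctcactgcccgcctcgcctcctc
Tnfaip3: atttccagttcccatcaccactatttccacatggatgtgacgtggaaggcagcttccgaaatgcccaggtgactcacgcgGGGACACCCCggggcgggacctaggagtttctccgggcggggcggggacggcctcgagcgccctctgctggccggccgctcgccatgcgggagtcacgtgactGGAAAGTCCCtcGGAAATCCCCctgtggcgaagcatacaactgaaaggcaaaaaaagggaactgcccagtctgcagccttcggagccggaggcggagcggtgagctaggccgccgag

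The leftmost base of the match in Nfkb1 is at position 4, where 1 is the transcription start, and that in Nfkbia at -31, on the other strand. In Nfkbiz it is at -13. Tnfaip3 has its matches at -170, -67 and -55, the last pair on the other strand with 2 bases between them.

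**Figure D4:**
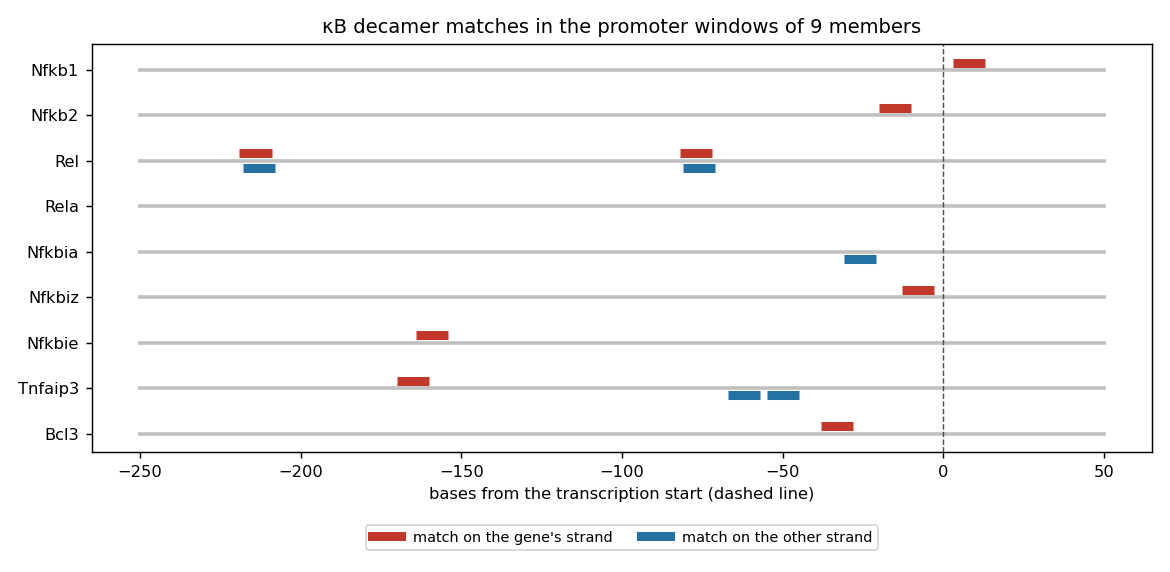
Map of κB decamer matches in the promoter windows of the 9 matched members, with bases from the transcription start on the horizontal axis, red bars for matches on the gene's strand and blue bars for the other strand. Tnfaip3 has 3 matches, Rel 2 overlapping pairs and Rela none.

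The supplied microRNA is shown with its seed, the bases 2 to 8 that pair with target transcripts, in capitals. The labels do not state which of its mature forms the AAV carries, so both are given, from RefSeq GRCr8 on the plus strand, miR-330-5p at chr1:87961227-87961248 and miR-330-3p at chr1:87961266-87961288. Their seeds differ, so they form 2 seed families. Whether any member is a target was not tested.
rno-miR-330-5p: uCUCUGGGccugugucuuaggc
rno-miR-330-3p: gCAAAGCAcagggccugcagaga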

How the data were processed

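For 3 libraries of pooled condyle tissue (10x 3′ chemistry v3.1) the authors deposited tables of graph-based clusters, whose signal is the mean count of each gene per cluster. The submitters' processing notes name Cell Ranger 7.0, STAR and Seurat 4.0.1 and list the builds GRCh38 and mm10; the build of these tables is not given in the sources used here. The deposited fold changes and p-values are the authors' own comparisons of clusters and were not used. The notes describe filters on genes, UMIs and mitochondrial share and name no step for doublets. None was applied here, where the tables hold cluster means.

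Each mean is a whole multiple of the smallest positive mean of its column (100% of values, within 0.001), so dividing by it returned UMIs, which were scaled to CPM, with 0.5 UMI added before a log2 ratio. Count models were not run, since each condition has 1 library.

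A marker counted for a cluster with at least 10 UMIs and at least 1 log2 unit above the other clusters. A class needed 3 such markers at 50 CPM or more and no other class ahead of it among the 10 leading genes. B-lineage clusters needed 5 markers at 50 CPM and 4-fold above the mean of the 3 lowest clusters. The macrophage-marker cluster was named by its number of markers alone. The alternatives fixed before the tables were read for this report named the cluster with the most markers as the value of a class. The sum over its clusters was used in its place, and the group sums are given under both. Ties in the number of markers were broken by the number at 50 CPM or more, and the tied clusters were read as well.

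The members and lists (4 of the pathway, 1 of dissociation genes) were chosen with earlier results of these data known. Of each list the 3 most abundant genes are named, and for each comparison up to 3 genes that rose most and up to 3 that fell most, if past 1.5-fold, apart and at 100 UMIs or more, in full over all clusters and as examples for single classes. The calculations used python 3.11.15, numpy 2.4.6, pandas 2.3.3, scipy 1.17.1 and matplotlib 3.10.9 and were tested on simulated data.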

Additional observations from a re-analysis of the deposited data

Results flagged for a closer look

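Members whose levels moved in opposite directions in 2 cluster classes, each with intervals apart, are listed here. From sham to UAC, Nfkbia had a log2 ratio of 0.57 in the macrophage-marker cluster and -0.18 in neutrophil clusters, a difference of 0.750. In the chondrocyte-like cluster it had 0.73, a difference of 0.911 from neutrophil clusters. The value in neutrophil clusters became 0.01 without scaling, so that the opposite direction depended on it there. It also depended on which clusters were read. It was -1.354 with the cluster highest in neutrophil markers and 1.001 with another of sham that has as many.

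From UAC to UAC + miR-330, Nfkbiz had a log2 ratio of -0.38 in the macrophage-marker cluster. It was higher in B-lineage clusters at 0.18, a difference of 0.561, in neutrophil clusters at 0.20, a difference of 0.581, and in the chondrocyte-like cluster at 0.33, a difference of 0.713. Read in single clusters with the most B-lineage markers, of which UAC + miR-330 has 2 that tie, the value in the B lineage was above 0 with the one of more markers at 50 CPM and -0.171 with the other. Relative to the median of all genes, the value in neutrophil clusters became -0.07. With 1 library per condition, the difference was not tested in any of these cases.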

How the results depend on the processing

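Over all clusters, the higher level of both groups in UAC than in sham held its direction under each alternative run. The log2 ratios were, for subunits and inhibitors, 0.494 and 0.455 without scaling, 0.321 and 0.281 centred on the median of all genes, 0.335 and 0.313 without neutrophil clusters, and 0.376 and 0.220 with class levels weighted by the sham shares. Subunits without Nfkb1 gave 0.175 and inhibitors without Nfkbia 0.416. From UAC to UAC + miR-330, subunits gave 0.365 without scaling, 0.101 without Nfkb1, 0.105 without neutrophil clusters and 0.088 weighted, but -0.003 centred. Inhibitors gave -0.338 centred and -0.230 without neutrophil clusters, but 0.031 without scaling and 0.095 without Nfkbia.

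Counts of members past the fold over all clusters were small under each alternative. From sham to UAC, 0 were higher at 2-fold, 4 at a fold limit below 1.5, 2 without scaling and 0 without the T and NK cluster. From UAC to UAC + miR-330, 0 were higher at 2-fold, 2 at the lower limit, 2 without scaling, 0 centred and 0 without the T and NK clusters, and 2 were lower at that limit. Leaving out the T and NK clusters, reading the Ms4a1-led, Dntt-led or Stfa2-led cluster alone, and the counts without scaling or centred were chosen after seeing the data.

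Several class values changed sign. Summed over the clusters of a class, UAC against sham gave 0.339 for B-lineage subunits, 0.112 for their inhibitors, and 0.059 and -0.151 in neutrophils. UAC + miR-330 against UAC gave 0.077 and -0.112 in the B lineage, and 0.220 and -0.012 in neutrophils. With the cluster highest in the class's markers, which the plan had named first and which pairs different stages, B lineage from sham to UAC gave -0.003 for subunits, -0.076 for inhibitors, -0.019 for Nfkb1, -0.488 for Rel and -0.629 for Bcl3. In neutrophils, UAC against sham, it gave -0.819 for subunits and -1.289 for inhibitors, and for members -0.774 (Nfkb1), -0.904 (Nfkb2), -0.401 (Rel), -0.500 (Rela), -1.410 (Relb), -1.354 (Nfkbia), -0.882 (Nfkbiz), -0.935 (Nfkbie), -0.992 (Tnfaip3) and -2.903 (Bcl3). In UAC + miR-330 against UAC it gave 0.162 and -0.336 for B-lineage subunits and inhibitors and 0.199 and 0.089 for those of neutrophils, with 0.020 for neutrophil Nfkbia. Some clusters tied for the most markers, with 7 of the B lineage in 2 clusters of sham, 8 in 2 of UAC + miR-330 and 13 of neutrophils in 2 of sham, and the tie was broken by the number at 50 CPM or more. With the other cluster, an alternative chosen after seeing the data, UAC against sham gave 0.162 for B-lineage subunits, 0.215 for their inhibitors and -0.005 for Nfkbiz, and in neutrophils 0.408 for subunits, 0.916 for inhibitors and 1.001 for Nfkbia, so the fall there turned into a rise. UAC + miR-330 against UAC gave 0.179 and -0.191 for B-lineage subunits and inhibitors and -0.171 for Nfkbiz. The Ms4a1-led cluster gave -0.037 for B-lineage inhibitors in UAC against sham and 0.036 in UAC + miR-330 against UAC. Neutrophil inhibitors from sham to UAC gave 0.044 without scaling and 0.214 in the cluster led by Stfa2 and Ifit3. From UAC to UAC + miR-330, neutrophil subunits gave -0.049 centred, chondrocyte-like subunits 0.050 without scaling, B-lineage inhibitors 0.124 without scaling and 0.122 without Nfkbia, and chondrocyte-like inhibitors 0.188 without Nfkbia. Apart from the leading members, which are left out by construction, the cause was not tested.

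The inhibitors per subunit, in the order sham, UAC and UAC + miR-330, were 0.180, 0.195 and 0.191 over all clusters without Nfkbia and 1.603, 1.700 and 1.375 without Nfkb1. B-lineage clusters had 0.133, 0.133 and 0.138, then 1.155, 1.070 and 0.958. Neutrophil clusters had 0.691, 0.657 and 0.674, then 7.571, 6.662 and 5.825. The macrophage-marker cluster had 0.497, 0.560 and 0.441, then 4.183, 5.183 and 3.385. The chondrocyte-like cluster had 0.685, 0.728 and 0.944, then 4.689, 5.966 and 5.337. Neutrophil clusters thus stayed above B-lineage clusters in both, while the order of libraries changed over all clusters. Without Nfkbia it also changed in the B-lineage, neutrophil and chondrocyte-like clusters.

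All 16 counts of members past the fold by class were within 1.5 times the reported ones with 5 UMIs added, with at least 10 UMIs and with no count minimum. Of class sums and class counts, 11 were level without scaling, 18 moved beyond their interval or that limit and 3 whose interval excludes 0 changed sign. Centred, these numbers were 18, 13 and 1. The macrophage-marker cluster, UAC against sham, had 0 members past 1.5-fold as reported, 2 centred and 5 without scaling. Of the sums and members of B-lineage and neutrophil clusters, 14 were level with the cluster highest in markers, 27 moved and 7 whose interval excludes 0 changed sign. Others among the 27, such as the neutrophil subunits and Nfkb1 given above, changed sign with an interval that includes 0. With the tied clusters 6 were level, 26 moved and 4 whose interval excludes 0 changed sign. With the Dntt-led cluster 4 of 4 B-lineage sums moved. Counts limit single members, such as Nfkbie in the chondrocyte-like cluster with 39 UMIs in sham and 40 in UAC.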
